A study of Mus musculus with 12 samples.

Results

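Gabra2, Gabra3, Gabra4, Gabra5, Gabrb1, Gabrb2 and Gabrg1 encode 4 alpha, 2 beta and 1 gamma subunit of the GABA-A receptor, and their RNA was compared between dopaminergic neurons of the substantia nigra pars compacta (SNpc) and of the ventral tegmental area (VTA) of the mouse midbrain. The 7 genes were taken by symbol from a count table of 23079 genes, and all 7 passed the filter on low counts. Libraries of both regions came from C57BL/6 mice by TRAP, read here as translating ribosome affinity purification, which pulls down RNA bound to tagged ribosomes of a chosen cell type. As for the tagged line, the promoter that drives the tag, the age of the animals and the number pooled per library, none of these is given in the sources used here. The columns SNpc 4 and SNpc 5 were identical in all genes, and so were VTA 2 and VTA 3. Each such pair, which differed by less than sampling noise, was counted as 1 library, leaving 5 libraries per region.

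GABA-A receptors are chloride channels opened by GABA, the main inhibitory transmitter of the brain, and each is a ring of subunits that usually joins alpha, beta and gamma members. The alpha subunit sets much of the receptor's affinity for GABA, its place at or outside the synapse and its response to benzodiazepines, beta subunits form the GABA site with alpha and bear the site of several anaesthetics, and a gamma subunit completes the benzodiazepine site. Midbrain dopaminergic neurons receive dense GABAergic input from the striatum, the pallidum and local interneurons. Among alpha subunits, alpha5 and alpha4 are known from receptors outside synapses that carry tonic inhibition, while alpha3 is the subunit classically described in dopaminergic and other monoaminergic neurons.

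Short coding windows show how members of the same class differ in the protein they encode. For the alpha subunits they surround a codon of the classical benzodiazepine site, in capitals, where histidine allows binding of diazepam-type drugs and arginine does not. Each window has 30 bases, is written 5′ to 3′ on the coding strand from GENCODE M21 transcripts (mm10) and lies within 1 exon.
Gabra2: cctgataccttctttCACaatgggaaaaag
Gabra3: cctgataccttcttcCACaatggtaaaaaa
Gabra4: cctgatactttcttcAGGaatggaaagaaa
Gabra5: ccagacacgttcttcCACaacggcaagaag
The windows lie at chr5:71014493-71014522 (Gabra2, exon 5), chrX:72501156-72501185 (Gabra3, exon 5), chr5:71641140-71641169 (Gabra4, exon 4) and chr7:57488879-57488908 (Gabra5, exon 5), all on the minus strand. Gabra2, Gabra3 and Gabra5 carry the histidine codon CAC, and Gabra4 carries the arginine codon AGG. Against the Gabra2 window, 3 bases differ in Gabra3, 8 in Gabra4 and 7 in Gabra5.

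For the beta subunits the windows surround a codon of the second membrane segment, also in capitals, where asparagine gives high sensitivity to etomidate and loreclezole and serine gives low sensitivity.
Gabrb1: accatgaccaccatcAGCactcacctcagg
Gabrb2: acaatgaccacaatcAACacccacctccgg
They lie on the plus strand at chr5:72121966-72121995 (Gabrb1, exon 8) and chr11:42597558-42597587 (Gabrb2, exon 9), with the serine codon AGC in Gabrb1 and the asparagine codon AAC in Gabrb2. In all, 5 of the 30 bases differ between them.

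The libraries held 62356964 to 81393907 counts, and the 7 genes had between 263 and 12473 counts in each library. Levels are given as CPM, counts scaled to library size with the trimmed mean of M values (TMM). The summed CPM of 6 dopaminergic markers was 9465 to 13760.3 in SNpc and 4807 to 7919 in VTA, and all 6 were called higher in SNpc. Markers of other cells were present, and all of the markers in each list had counts. The 8 GABAergic neuron markers summed to 92.1 to 377 CPM in SNpc and 186 to 302 in VTA, 8 astrocyte markers to 29.0 to 97.1 in SNpc and 51.4 to 91.5 in VTA, and 8 oligodendrocyte markers to 271 to 1375 in SNpc and 691 to 858 in VTA. The 3 glutamatergic neuron markers summed to 18.6 to 87.7 CPM in SNpc and 93.1 to 131 in VTA, and 3 oligodendrocyte precursor markers to 6.54 to 13.6 in SNpc and 15.4 to 31.6 in VTA. The 8 microglia markers summed to 15 to 40.5 CPM in SNpc and 37.2 to 54.4 in VTA, and 7 endothelial and pericyte markers to 2.02 to 10.7 in SNpc and 7.32 to 84.8 in VTA. SNpc library 4 had the highest SNpc value for every one of these 7 lists of other cells and the lowest for the dopaminergic markers. Their part in the results below was not tested beyond the fits with marker levels as a covariate.

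Of the 7 subunit genes, 3 were higher in VTA (Gabra5, Gabra2 and Gabrb1) and 0 were higher in SNpc (quasi-likelihood test of edgeR, with a Benjamini-Hochberg adjusted p below 0.05 over 15685 genes). Of all genes tested, 17.8% were called higher in SNpc and 20.4% higher in VTA, 38.2% in either direction. The median log2 fold change, SNpc minus VTA, was -0.54 for the 7 genes and -0.04 over all genes. Gabrb2 missed the threshold, which it passed when SNpc library 4 was left out, and Gabra3, Gabra4 and Gabrg1 passed neither here nor in the 19 other fits. In RNA pooled from many cells, fewer cells of a type and less RNA per cell cannot be told apart.

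**Figure D1:**
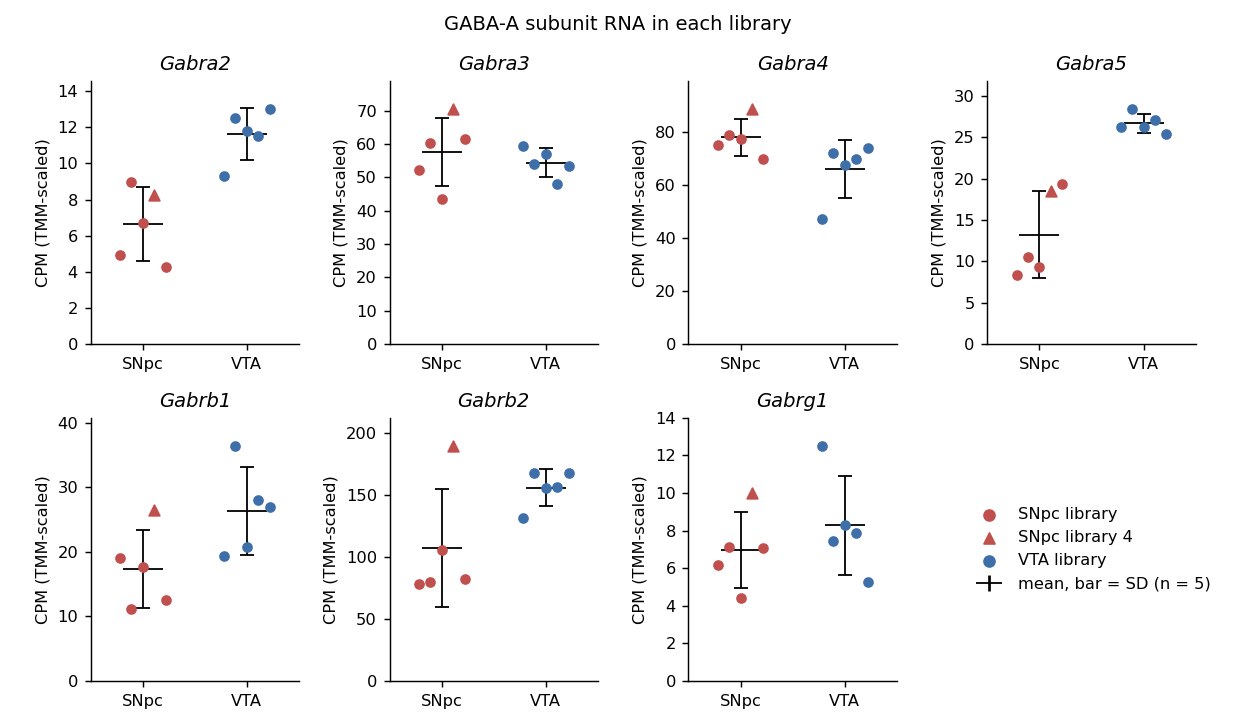
TMM-scaled CPM of each of the 7 subunit genes in the 5 SNpc (left, red) and 5 VTA (right, blue) libraries. Black lines give the mean with the SD, and the triangle is SNpc library 4. Gabra2 and Gabra5 have no overlap between regions, and in Gabrb2 only SNpc library 4, at 189.9 CPM, lies above the lowest VTA library.

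Gabra5, which encodes the subunit of many extrasynaptic receptors (Entrez 110886, mm10 chromosome 7, 57407672 to 57510059, minus strand, 10 exons), differed most. It stood at 8.40, 10.5, 9.34, 18.5 and 19.4 CPM in SNpc libraries 1, 2, 3, 4 and 6, against 26.3, 28.4, 26.2, 27.1 and 25.4 CPM in VTA libraries 1, 2, 4, 5 and 6. Every SNpc library was below every VTA library, and the SNpc libraries lay at 2 levels while the VTA libraries lay close together. Mean CPM was 13.2 ± 5.28 for SNpc and 26.7 ± 1.11 for VTA (SD, n = 5 each), a log2 fold change of -1.01 ± 0.22 (SE), with an adjusted p of 0.00167 in edgeR, and VTA had 2.02-fold more. The call held in all 19 other fits, with log2 fold changes of -1.19 to -0.79 and adjusted p of 0.000102 to 0.0321. Exons of Gabra5 share 148 bases with Gm9962, an antisense transcript, and the kit marks no strand, so reads there cannot be told apart.

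Gabra2, an alpha subunit of synaptic receptors found at axon initial segments in forebrain neurons (Entrez 14395, chromosome 5, 70957597 to 71095849, minus strand), was the other gene whose regions did not overlap. It had 4.93, 8.996, 6.71, 8.27 and 4.26 CPM in the SNpc libraries, against 9.28, 12.5, 11.8, 11.5 and 13.0 CPM in the VTA libraries, in the same order of libraries. SNpc library 2 and VTA library 1 came nearest to each other. Mean CPM was 6.63 ± 2.05 for SNpc and 11.6 ± 1.44 for VTA (SD, n = 5 each), and the log2 fold change was -0.81 ± 0.23 (SE), with an adjusted p of 0.0114 in edgeR. The regions were separate in 2 of the 7 genes, against 26.6% of all genes tested (14.6% with VTA higher). The call of Gabra2 ended with glial markers as a covariate (log2 fold change -0.65, adjusted p = 0.105) and when the trend with transcript length and GC content was removed (-0.64, adjusted p = 0.0575).

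Gabra3 (Entrez 14396, chromosome X, 72432681 to 72656848, minus strand) did not pass the test, and its libraries were mixed between the regions. It had 52.1, 60.2, 43.6, 70.4 and 61.5 CPM in the SNpc libraries and 59.3, 54.0, 57.0, 47.9 and 53.5 CPM in the VTA libraries. The VTA values lay inside the SNpc range. Mean CPM was 57.6 ± 10.2 for SNpc and 54.4 ± 4.29 for VTA (SD, n = 5 each), a log2 fold change of 0.08 with a 95% interval of -0.19 to 0.35 (edgeR adjusted p = 0.645).

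Gabra4, the alpha subunit with arginine at the benzodiazepine site (Entrez 14397, chromosome 5, 71569749 to 71658308, minus strand), had the smallest relative spread in SNpc of the 7. Its values were 75.1, 78.7, 77.1, 88.4 and 69.6 CPM in the SNpc libraries, against 47.1, 72.0, 67.5, 69.7 and 74.0 CPM in the VTA libraries. In 4 SNpc libraries it was above the highest VTA library, and VTA library 1 stood well below the other VTA libraries. Mean CPM was 77.8 ± 6.88 for SNpc and 66.1 ± 10.9 for VTA (SD, n = 5 each). The log2 fold change of 0.24 did not pass the test (95% interval -0.02 to 0.50, edgeR adjusted p = 0.145), and without VTA library 1 it was 0.14 (adjusted p = 0.336).

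**Figure D2:**
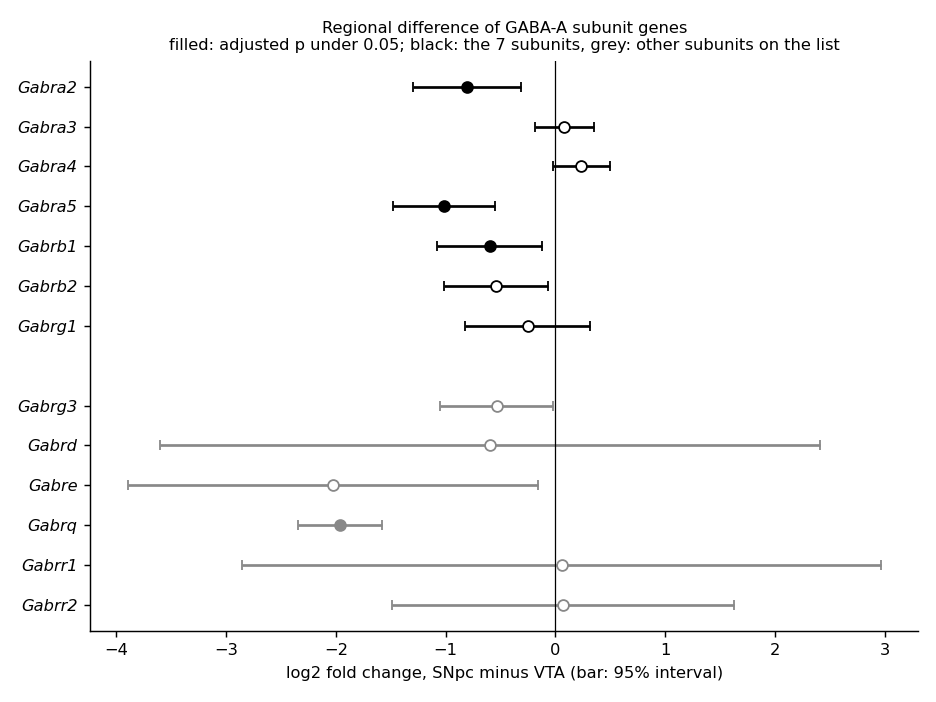
Log2 fold change, SNpc minus VTA, of the 7 subunit genes (black) and of 6 other GABA-A subunit genes (grey), with 95% intervals from the edgeR fit. Filled points passed an adjusted p of 0.05. Gabra5 and Gabra2 lie at -1.01 and -0.81, Gabra3 and Gabra4 lie near 0, and Gabrq lies furthest to the VTA side among the genes that passed.

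Both beta subunit genes had lower means in SNpc, and whether each passed the test depended on single libraries. Gabrb1 (Entrez 14400, chromosome 5, 71658113 to 72149037, plus strand) had 19.0, 11.2, 17.6, 26.5 and 12.5 CPM in the SNpc libraries, against 19.3, 36.4, 20.8, 28.1 and 27.0 CPM in the VTA libraries. In 4 SNpc libraries it was below every VTA library, and SNpc library 4 reached into the VTA range. Mean CPM was 17.4 ± 6.09 for SNpc and 26.3 ± 6.80 for VTA (SD, n = 5 each), a log2 fold change of -0.60 ± 0.23 (SE) that passed narrowly (edgeR adjusted p = 0.0468). The call held in 3 of the 10 fits that left out a library, those without SNpc library 4, VTA library 1 or VTA library 4. Without SNpc library 1, 2, 3 or 6 or VTA library 2, 5 or 6 it ended, with log2 fold changes of -0.63 to -0.45. With the length and GC trend removed the log2 fold change was -0.08 (adjusted p = 0.822), and exons of Gabrb1 span 13838 bases, the most of the 7.

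Gabrb2 (Entrez 14401, chromosome 11, 42419757 to 42629028, plus strand), the gene with the highest mean level per kilobase of the 7 in both regions, had 78.4, 80.2, 106, 189.9 and 82.4 CPM in the SNpc libraries, against 132, 168, 156, 157 and 168 CPM in the VTA libraries. The other 4 SNpc libraries were below every VTA library, while SNpc library 4 was above all of them. Per kilobase of merged exon, Gabrb2 was above Gabra3, the next gene, in only 2 of the 5 SNpc libraries. Per kilobase of the longest transcript it was above Gabra4, the next gene there, in all 5. Mean CPM was 107 ± 47.5 for SNpc and 156 ± 14.5 for VTA (SD, n = 5 each), a log2 fold change of -0.54 ± 0.22 (SE) that did not pass (edgeR adjusted p = 0.0687). Without SNpc library 4 the SNpc mean was 86.7 ± 12.9 CPM (SD, n = 4) and the log2 fold change -0.79 (edgeR adjusted p = 7.43e-05). Over all alternatives the adjusted p ran from 7.43e-05 to 0.322.

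SNpc library 4 also stood apart in genes of GABAergic neurons and of glia. Summed oligodendrocyte markers were 1375 CPM in library 4 and at most 506 in the other SNpc libraries. Astrocyte markers were 97.1 CPM in library 4 and at most 31.0 in the others. Gad2, which makes GABA and marks GABAergic neurons, was 63.6, 84.1, 88.4, 221 and 88.5 CPM in the SNpc libraries, against 199, 246, 179, 173 and 145 CPM in the VTA libraries. Like Gabrb2, it was highest in library 4 among the SNpc libraries. All 8 GABAergic neuron markers had their highest SNpc value in library 4, but between the regions they went both ways, with log2 fold changes above 0 for 3 and below 0 for 5, of which 0 passed. Gad1, which also makes GABA, was 13.3, 20.2, 28.3, 67.6 and 37.0 CPM in the SNpc libraries, against 23.3, 25.5, 21.6, 27.7 and 14.4 CPM in the VTA libraries, with overlap and a log2 fold change of 0.56 (edgeR adjusted p = 0.264). With the mean log2 CPM of Gad1, Gad2 and Slc32a1 as a covariate Gabrb2 passed the test (log2 fold change -0.63, edgeR adjusted p = 0.00235), and with glial markers as a covariate it did not (-0.21, adjusted p = 0.322). Of the 7 subunit genes, 5 had their highest SNpc value in library 4 (Gabra3, Gabra4, Gabrb1, Gabrb2 and Gabrg1), against 23.9% of all genes tested.

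Gabrg1 encodes a gamma subunit that is also found in glia (Entrez 14405, chromosome 5, 70751047 to 70842617, minus strand). It had 6.14, 7.12, 4.40, 10.05 and 7.09 CPM in the SNpc libraries, against 12.5, 7.44, 8.32, 7.88 and 5.24 CPM in the VTA libraries. The regions overlapped widely, and the highest library of each region was SNpc library 4 and VTA library 1. These libraries also had the highest summed astrocyte markers of their region, 97.1 CPM in SNpc library 4 and 91.5 CPM in VTA library 1. The same held for the endothelial and pericyte markers, at 10.7 CPM in SNpc library 4 and 84.8 CPM in VTA library 1. SNpc library 4 was highest in SNpc for every list of other cells, and a link of any list to Gabrg1 was not tested. Mean CPM was 6.96 ± 2.05 for SNpc and 8.28 ± 2.66 for VTA (SD, n = 5 each), and the log2 fold change of -0.25 did not pass (95% interval -0.82 to 0.32, edgeR adjusted p = 0.494). With glial markers as a covariate it was 0.08 (adjusted p = 0.889).

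Per kilobase of merged exon, which allows levels of different genes to be compared, the order in SNpc was Gabrb2, Gabra3, Gabra4, Gabra5, Gabrb1, Gabrg1 and Gabra2. Mean levels in SNpc were 16.9, 14.7, 12.8, 4.45, 1.25, 0.884 and 0.868 CPM per kilobase in that order. The ranges of Gabrb2, Gabra3 and Gabra4 overlapped from each to the next, as did those of Gabrb1, Gabrg1 and Gabra2, whereas Gabra5 was separate from both neighbours. In VTA the means were 24.6 CPM per kilobase for Gabrb2, 13.9 for Gabra3, 10.9 for Gabra4, 8.97 for Gabra5, 1.90 for Gabrb1, 1.52 for Gabra2 and 1.05 for Gabrg1. There Gabrb2 was separate from Gabra3, while Gabra4 overlapped Gabra5 through VTA library 1. Gabra3 and Gabra4 barely failed to overlap, as the lowest library of Gabra3 and the highest of Gabra4 both rounded to 12.2 CPM per kilobase. With the longest transcript as the length, 3 of the 7 genes kept their rank in SNpc and 3 in VTA. Gabra4 and Gabra3 then changed places in both regions, with ranges that overlapped. Within libraries, Gabra4 was then above Gabra3 in 5 of 5 in SNpc and 4 of 5 in VTA. With merged exons Gabra3 was above Gabra4 in 4 of 5 in SNpc and 5 of 5 in VTA, so the order depends on the length used.

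**Figure D3:**
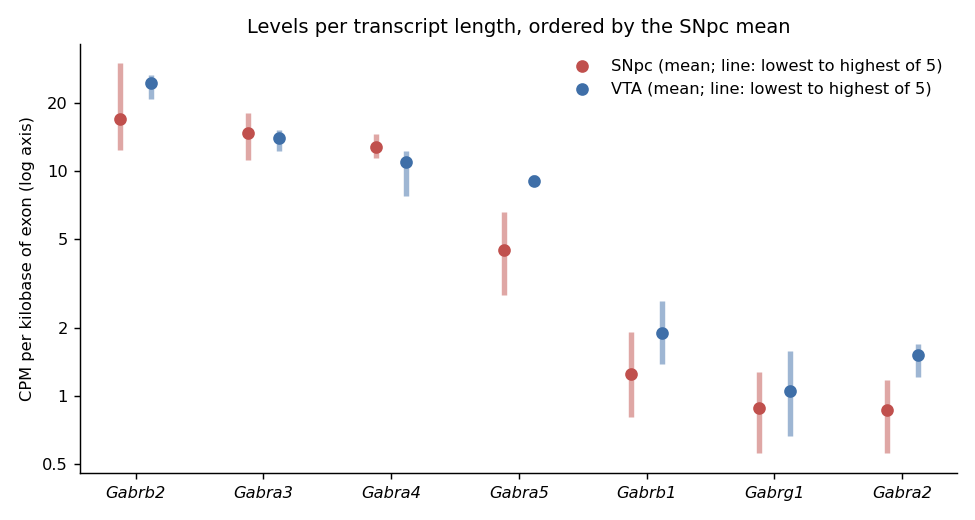
Level of each subunit gene per kilobase of merged exon, on a log axis, in SNpc (left of each pair, red) and VTA (right, blue). Points are means and lines run from the lowest to the highest of 5 libraries. Gabrb2, Gabra3, Gabra4 and, in VTA, Gabra5 lie above 7 CPM per kilobase, and the other 3 genes below 3.

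The make-up of alpha subunit RNA was described as the share of each gene in the summed level per kilobase of the 4 alpha genes. Gabra3 made up 44.6 ± 2.66% in SNpc libraries and 39.4 ± 4.0% in VTA libraries (SD, n = 5 each), the largest mean share in both regions with this length. Per kilobase of the longest transcript, Gabra4 was instead above Gabra3, at 18.9 against 15.7 CPM in SNpc and 16.1 against 14.8 CPM in VTA. Gabra4 made up 39.4 ± 4.78% in SNpc and 30.7 ± 4.2% in VTA, and the ranges of both genes overlapped between regions. Gabra5 took 13.3 ± 3.95% in SNpc and 25.5 ± 1.37% in VTA, and Gabra2 took 2.66 ± 0.765% in SNpc and 4.31 ± 0.383% in VTA. The shares of Gabra5 and Gabra2 did not overlap between the regions. The 4 shares sum to the whole, so that a larger share of one gene is a smaller share of the others, other alpha genes are not counted in them, and they were not tested.

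**Figure D4:**
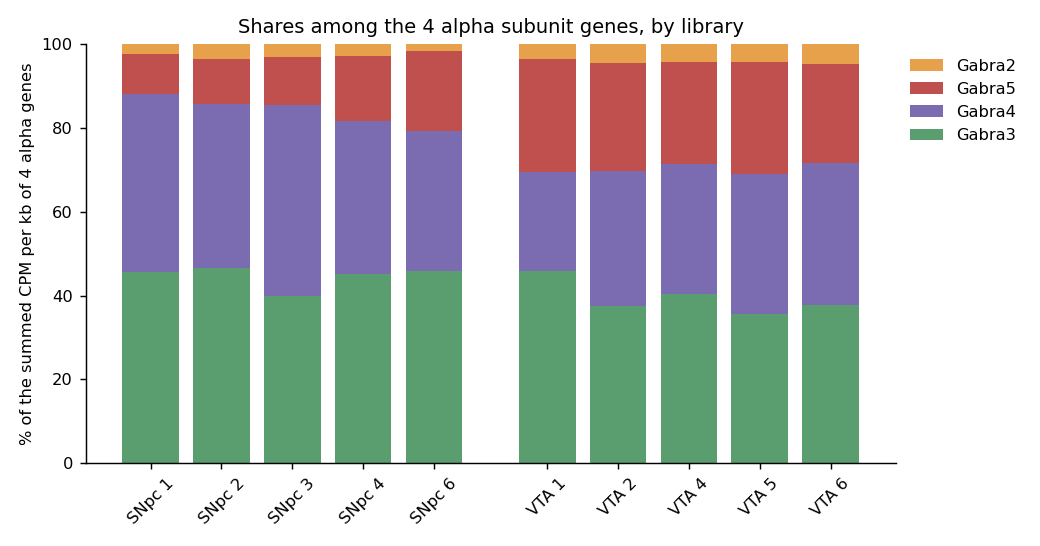
Share of each of the 4 alpha subunit genes in their summed CPM per kilobase, 1 bar per library, SNpc on the left and VTA on the right. Gabra5 takes 9.71 to 19.1% in the SNpc libraries and 23.7 to 26.9% in the VTA libraries, and Gabra4 takes 33.4 to 45.6% in SNpc and 23.5 to 33.7% in VTA.

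Of the 7 genes, 4 lie in a cluster on chromosome 5 between 70751047 and 72149037, in the order Gabrg1, Gabra2, Gabra4 and Gabrb1. A gap of 114979 bases lies between Gabrg1 and Gabra2, and 473899 bases lie between Gabra2 and Gabra4. The log2 fold changes of the 4 genes in that order were -0.25, -0.81, 0.24 and -0.60. The 2 called genes (Gabra2 and Gabrb1) thus alternated with the 2 not called. Gabra4 and Gabrb1 start head to head on opposite strands and share 46 bases of exon, so reads in that stretch cannot be told apart. Gabra4 averaged 12.8 CPM per kilobase in SNpc, against 1.25 for Gabrb1 in the same libraries. In VTA the values were 10.9 CPM per kilobase for Gabra4 and 1.90 for Gabrb1.

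The spread between libraries was itself uneven. The coefficient of variation was larger in SNpc than in VTA for 5 of the 7 genes, against 56.9% of all genes tested. It was 39.9% in SNpc and 4.14% in VTA for Gabra5, and 44.2% in SNpc and 9.28% in VTA for Gabrb2. Without SNpc library 4 the SNpc value for Gabrb2 was 14.9%. Gabra4 went the other way, with 8.84% in SNpc and 16.5% in VTA, and so did Gabrg1, with 29.5% in SNpc and 32.1% in VTA.

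For each subunit gene the 2 most similar genes were sought among 11512 others, by the root mean square difference of log2 CPM centred over the 10 libraries. Gabra5 was nearest to Adora1, the A1 adenosine receptor (0.153), and to the nucleotide sugar transporter Slc35d1 (0.182), where Gabra5 itself varied by 0.657 around its mean. Gabra2 was nearest to the adaptor Gga2 (0.159) and the potassium channel Kcnn2 (0.181), with its own variation at 0.532. Gabrb2 was nearest to the tetraspanin Tspan2 (0.126) and to Pitpnc1 (0.175), with its own at 0.472. For Gabra3 they were Nanp (0.086) and Etv6 (0.108), for Gabra4 Eif3f (0.082) and Acat2 (0.099), for Gabrb1 Dok4 (0.206) and Zbtb6 (0.220), and for Gabrg1 Stk33 (0.211) and Lrrc45 (0.223). Over 10 libraries that differ by region such nearness is a description of these libraries.

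Of 9 other GABA-A subunit genes on the list, 6 were tested, of which 0 passed toward SNpc and 1 toward VTA. Over all genes tested the shares were 17.8% toward SNpc and 20.4% toward VTA. The median log2 fold change of these 6 genes was -0.57. Gabrq, which encodes theta, was 6.84 ± 1.49 CPM for SNpc and 26.7 ± 2.69 for VTA (SD, n = 5 each), a log2 fold change of -1.96 ± 0.18 (SE), with an adjusted p of 6.91e-07 in edgeR. Gabrg3, which encodes another gamma subunit, was 11.3 ± 3.52 CPM for SNpc and 16.3 ± 4.35 for VTA and did not pass (log2 fold change -0.54, edgeR adjusted p = 0.0943). Without VTA library 5 it passed, which made 2 genes of this list higher in VTA (-0.68, adjusted p = 0.0314). Gabrd, which encodes the delta subunit of extrasynaptic receptors, was 9.67 CPM in SNpc library 4 and at most 1.35 CPM in the other SNpc libraries, with means of 2.36 ± 4.12 CPM for SNpc and 3.57 ± 3.15 for VTA. Gabrd did not pass (log2 fold change -0.60, edgeR adjusted p = 0.764), and without SNpc library 4 its log2 fold change was -2.68 (adjusted p = 0.0660). Gabre, which encodes epsilon, was low, at 0.196 ± 0.166 CPM for SNpc and 0.804 ± 0.345 for VTA, with 344 counts in all 10 libraries together. It did not pass either (-2.03, edgeR adjusted p = 0.0811), though it did with DESeq2 (adjusted p = 0.0393). Gabra6 and Gabrp had 0 counts in all 10 libraries. In a single library taken alone, 0 counts allows an expected count of up to 3.

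Genes that anchor, assemble or move the receptor went both ways. Of 21 such genes, 8 passed toward SNpc and 6 toward VTA, where 17.8% and 20.4% of all genes tested did. The median log2 fold change of the 21 genes was -0.15. Gphn, which encodes the postsynaptic scaffold gephyrin, was 1572 ± 169 CPM for SNpc and 1179 ± 70.8 for VTA (SD, n = 5 each), a log2 fold change of 0.42 (edgeR adjusted p = 0.00136). Nsf (0.59), Ubqln1 (0.63) and Gabarapl1 (0.41), which take part in trafficking and turnover of many membrane proteins, were higher in SNpc as well. With the length and GC trend removed, Gabarapl1 was 0.18 and its call ended (edgeR adjusted p = 0.0706). Gphn and Gabarapl1 share exon bases with transcripts on the opposite strand, 147 for Gphn and 570 for Gabarapl1. Shisa7, an auxiliary subunit of the receptor, was 47.4 ± 9.18 CPM for SNpc and 108 ± 17.4 for VTA, a log2 fold change of -1.18 (edgeR adjusted p = 7.64e-06). Slitrk3, a postsynaptic adhesion protein of inhibitory synapses, was 62.4 ± 14.4 CPM for SNpc and 168 ± 41.8 for VTA, a log2 fold change of -1.43 (edgeR adjusted p = 2.63e-05).

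Of 11 genes for GABA synthesis, uptake, breakdown and the chloride gradient, 1 passed toward SNpc and 0 toward VTA. Over all genes tested 17.8% passed toward SNpc and 20.4% toward VTA. The median log2 fold change of the 11 genes was -0.04. Dbi, the precursor of peptides that act at the benzodiazepine site, was 133 ± 26.2 CPM for SNpc and 78.0 ± 19.2 for VTA (SD, n = 5 each), a log2 fold change of 0.76 (edgeR adjusted p = 0.00187). With the length and GC trend removed, Dbi fell to 0.35 but kept its call (edgeR adjusted p = 0.0386). Gad2 (-0.79, edgeR adjusted p = 0.0763), Slc6a11 (-0.40, adjusted p = 0.0823), Aldh9a1 (-0.31, adjusted p = 0.0929) and Abat (0.15, adjusted p = 0.169) did not pass. Slc12a5, which encodes the chloride exporter of mature neurons, was 177 ± 19.5 CPM for SNpc and 182 ± 12.7 for VTA (-0.04, edgeR adjusted p = 0.800). Without SNpc library 4, 2 genes of this list were higher in VTA, Gad2 (log2 fold change -1.16) and Slc6a11 (-0.50), and without VTA library 2 only Slc6a11 was (-0.49).

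**Figure D5:**
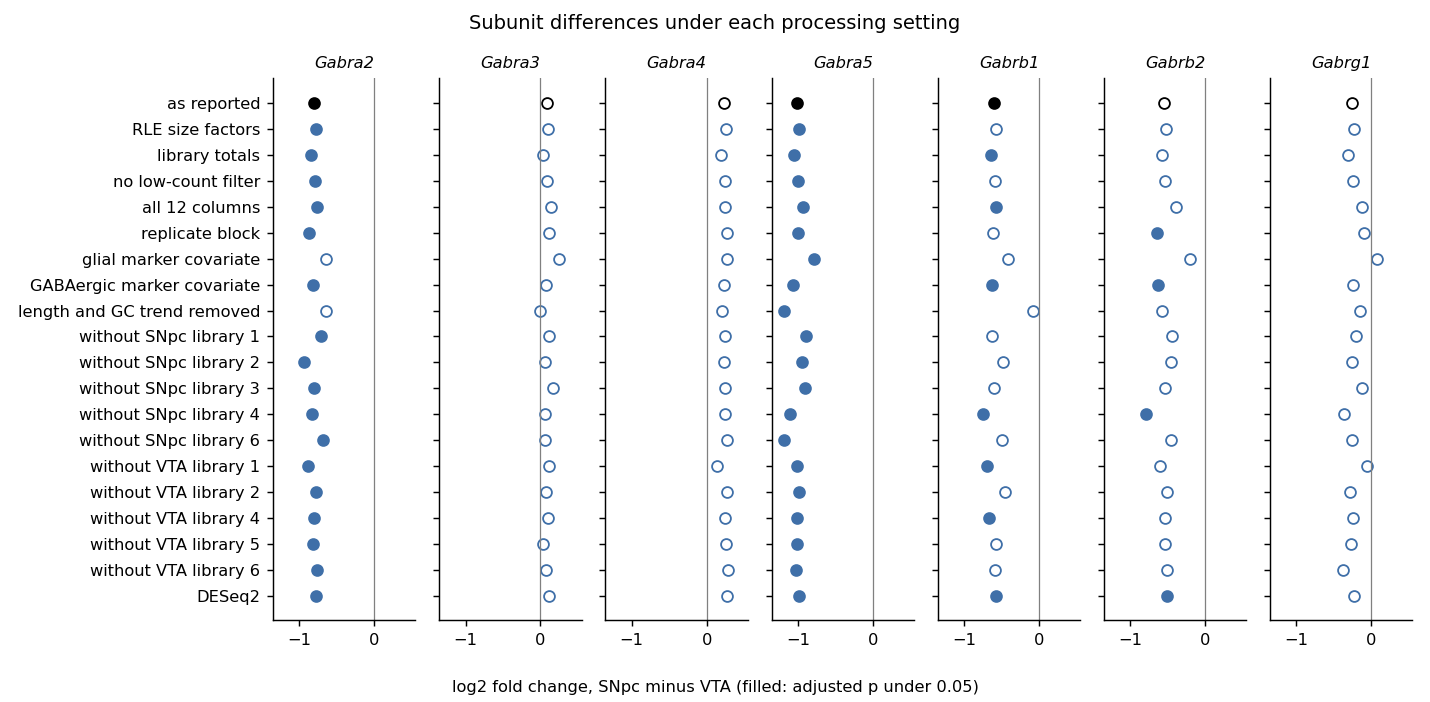
Log2 fold change, SNpc minus VTA, of each subunit gene as reported (black, top row) and under 19 other settings (blue). Filled points passed an adjusted p of 0.05. Gabra5 is filled throughout, Gabra2 is open with the glial covariate and with the length and GC trend removed, and Gabrb2 is filled in 4 settings.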

How the data were processed

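The deposited table gives unnormalized read counts for each gene in 12 columns, 6 for SNpc and 6 for VTA. The authors aligned reads to mm10 using TopHat2 2.0.8, per the submitters' processing notes, while the counting program, the annotation and the strand setting were not given in the sources used here. According to the labels' protocols, whole-transcript amplification of little RNA preceded library preparation, with a kit that marks no strand. No label says that libraries came from separate animals, so the p-values reflect only spread among libraries, possibly technical, and no batch is named. The test was edgeR 4.0.16 under R 4.3.3 (filterByExpr, TMM, robust quasi-likelihood F test with region as the only term, Benjamini-Hochberg adjustment), tested on simulated data. CPM is TMM-scaled, log2 CPM used a prior count of 2, and coordinates, lengths and sequences come from GENCODE M21. Length and GC trends were splines with 4 degrees of freedom each, fitted per library. DESeq2 1.42.0 served as an alternative. The named genes are the 7 subunit genes, from each of 3 other lists the 4 smallest p-values and the 2 most abundant, and for each subunit gene the 2 most similar genes whose mean log2 CPM is at least 1. Members and lists were chosen with earlier results of these data known. Some other genes of these lists are not reported here, and the lists were counted and the rule applied without them.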

Additional observations from a re-analysis of the deposited data

Results flagged for a closer look

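Among 23 genes named, each examined in both regions (46 groups of 5 libraries), 5 groups had 1 library far from the rest. Chance alone gives about 1 group in 20 where groups are independent. These groups share the same libraries and their CPM was not log-transformed, so that rate is only a rough guide. Gabrb2 was 189.9 CPM in SNpc library 4, and 78.4 to 106 CPM in the other SNpc libraries. Gabra4 was 47.1 CPM in VTA library 1, and 67.5 to 74.0 CPM in the other VTA libraries. Gabrd was 9.67 CPM in SNpc library 4, with the others at 0.0159 to 1.35 CPM. Gad2 was 221 CPM in SNpc library 4, with the others at 63.6 to 88.5 CPM. Ubqln1 was 199 CPM in SNpc library 1, with the others at 171 to 176 CPM.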

How the results depend on the processing

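Gabra5 kept its direction and its call in all 10 fits that left out a library and all 9 other alternatives, and Gabra4 stayed positive and uncalled in all 19. Leaving out 1 library gave log2 fold changes of -0.94 to -0.68 for Gabra2, 0.04 to 0.17 for Gabra3, 0.14 to 0.28 for Gabra4, -1.19 to -0.89 for Gabra5, -0.74 to -0.45 for Gabrb1, -0.79 to -0.45 for Gabrb2 and -0.38 to -0.05 for Gabrg1. The number of the 7 genes higher in VTA was 2 to 4 in those fits and 0 were higher in SNpc in any. Over all genes, 2284 to 3317 then passed toward SNpc and 2790 to 3193 toward VTA. Of the other lists, 1 to 2 other subunit genes, 5 to 6 partner genes and 0 to 2 synthesis and transport genes were then higher in VTA.

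Given a glial marker covariate, 1735 of 15685 genes tested passed toward SNpc and 2339 toward VTA. In that fit 3 synthesis and transport genes passed toward SNpc, and 1 of the 7 genes passed toward VTA. Gabra2 was -0.65, Gabrb1 -0.41 and Gabrg1 0.08, the last with its sign turned. With the length and GC trend removed, 2324 of 14797 genes tested passed toward SNpc and 2527 toward VTA. In that fit 4 synthesis and transport genes were higher in SNpc. Higher in VTA were 1 of the 7 genes, 3 partner genes and 1 synthesis and transport gene. Gabra2 was then -0.64, Gabrb1 -0.08 and Gabra3 -0.01, the last with its sign turned and uncalled. Gabrb1 also missed the threshold with RLE size factors (-0.57) and without the low-count filter (-0.59). Gabrb2 passed with the GABAergic covariate (-0.63) and DESeq2 (-0.51). All 12 columns gave 2 synthesis and transport genes higher in SNpc and 1 in VTA. The GABAergic covariate gave the same counts, but it is built from Gad1, Gad2 and Slc32a1 of that list, and its calls of Gad1 and Gad2 say nothing about them. Of the other subunit genes, 3 were higher in VTA with all 12 columns and 2 with DESeq2. Slc12a5 turned its sign with the glial covariate (0.03), with the length and GC trend removed (0.36, adjusted p = 0.00908) and in some fits without a library (-0.06 to 0.03). With the longest transcript, 3 of 7 genes kept their rank in each region. The causes were not tested.

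The replicate numbers are shared by the regions, but same-numbered libraries did not deviate together (correlations of -0.072 to 0.044 over 4 pairs). Of these, 2 of 8 libraries correlated best with their own number. Of identical columns the first number was kept, so the numbers of SNpc library 4 and VTA library 2, both in these pairs, are uncertain. SNpc library 3 and VTA library 5 had no partner of the same number. These limits also hold for the fit with the replicate number as a block. With the replicate number as a block, 1814 genes passed toward SNpc and 2571 toward VTA, Gabrb1 (-0.61) was not called and Gabrb2 (-0.65) was, and 3 other subunit genes, 3 partner genes and 1 synthesis and transport gene were higher in VTA. Among 16 other named genes, 288 refits gave the same side of the threshold, 15 gained a call and 1, of Gabarapl1, lost one. Gabrd gained its call with the block (-3.01, adjusted p = 0.0335) and Gabre with all 12 columns and DESeq2. Each of the 7 genes had at least 263 counts in every library, and the 5 libraries per region limit the precision.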
